A study of Caenorhabditis elegans with 4 samples.

Results

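The regions described here are the NHR-12 ChIP-seq regions that lie in the 2 large piRNA clusters of chromosome IV of Caenorhabditis elegans. They were chosen by position alone: a region belonged to cluster 1 when its midpoint lay from 4500000 to 7000000 on IV, and to cluster 2 when it lay from 13500000 to 17200000, on genome build WormBase WS220. In all, 4924 of the 55242 deposited regions met this rule. They comprised 7 of 197 regions in the list combined from both replicates, 1871 of 25045 in the list of ChIP replicate 1 and 3046 of 30000 in that of ChIP replicate 2. The clusters measure 2.5 and 3.7 Mb, together 6.19% of the nuclear genome, and the remaining 11.3 Mb of IV served as the reference.

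All samples came from strain OP318, hermaphrodites with the unc-119(ed3) mutation and the transgene wgIs318, which carries nhr-12 tagged with TY1, EGFP and FLAG together with a functional unc-119 copy as the transformation marker. Larvae were harvested at L2 after growth at 20 °C, fixed with formaldehyde and lysed whole, so the chromatin is a mixture of all tissues. Chromatin precipitated with anti-GFP antibodies gave 2 ChIP samples, and the study's other 2 samples are inputs, whole-extract DNA from before the precipitation. The labels name a single transgenic strain made by biolistic transformation, give no untagged control, and do not say whether the numbered replicates were separate cultures. No reads or counts were used, so depth is unknown for each sample, and no input list was analysed here.

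The piRNAs of C. elegans, called 21U-RNAs, are small RNAs bound by the Piwi protein PRG-1, which recognises and silences foreign and transposon sequences in the germline. They are made from many separate short transcription units, most with a conserved upstream promoter motif, and the great majority of these units sit in the clusters on IV. In the RefSeq gene table of assembly WBcel235, 14714 of 15363 genes classed as piRNA (95.8%) are on IV. NHR-12 belongs to the nuclear hormone receptors, DNA-binding transcription factors of which nematodes have an enlarged set. The series asked where NHR-12 binds at L2. No genome sequence of the files' build was used, so regions are named by position and not assigned to genes or to single 21U-RNA loci.

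The 2 clusters held more regions than the rest of IV in both replicate lists, and far more so in replicate 2. Replicate 1 listed 277 regions per Mb in cluster 1, 318 in cluster 2 and 244 in the rest of IV. Replicate 2 listed 396 per Mb in cluster 1, 556 in cluster 2 and 284 in the rest of IV. In both lists cluster 2 was the denser of the pair, and the order of the 3 stretches was the same. At the density of the rest of IV the clusters would have held 1514 regions in replicate 1, where 1871 were listed, and 1759 in replicate 2, where 3046 were listed.

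Entries of a replicate list can overlap each other, so the densities were tested on loci, in which entries that share 1 bp or more were joined and counted once. In replicate 2, cluster 2 had 416 loci per Mb against 232 in the rest of IV, a ratio of 1.79 (95% interval 1.68 to 1.91, two-sided exact binomial test against the length share, adjusted p = 7.36e-69 over 9 tests). Cluster 1 had 309.6 loci per Mb, a ratio of 1.33 (1.23 to 1.45, exact binomial test, adjusted p = 2.90e-11). In replicate 1 the ratio was 1.26 for cluster 2 (1.17 to 1.37, exact binomial test, adjusted p = 2.45e-08). For cluster 1 of replicate 1 it was 1.12 (1.02 to 1.24, exact binomial test, adjusted p = 0.0322). Loci are not biological replicates, and these intervals cover counting error only. The excess of cluster 1 in replicate 1 lost its call in the strongest 50% and 10% of the list (ratios 1.13 and 1.02), with boundaries moved inward by 250 kb (1.11) and against the stretch between the clusters alone (1.10).

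Set against each other, cluster 2 exceeded cluster 1 by 1.35 times in replicate 2 (95% interval 1.23 to 1.47, exact binomial test, adjusted p = 2.90e-11). In replicate 1 the same ratio was 1.12 (1.01 to 1.25) and did not pass (exact binomial test, adjusted p = 0.0512). It passed there when each deposited entry was counted (ratio 1.15, adjusted p = 0.00562 by the same exact test). The excess of cluster 2 over the rest of IV was thus present in both replicates, and its intervals in the 2 lists, 1.17 to 1.37 and 1.68 to 1.91, did not overlap. It did not stop at the cluster in replicate 1. There the 0.293 Mb after cluster 2, part of the reference, had 253 loci per Mb beside 238 in cluster 2. In replicate 2 these were 294 and 416.

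In windows of 250 kb the excess of replicate 2 ran through nearly the whole of cluster 2. Its 14 full windows held from 100 to 178 regions, with a median of 143.5. All 14 lay above the highest of the 26 windows between the clusters, which was 93. The richest cluster 2 window ran from 15750000 to 16000000, and the poorest from 16250000 to 16500000. Of the 329 windows on the other nuclear chromosomes none reached the median of cluster 2, the highest being 123 on II from 12000000 to 12250000, and 10 of the 14 cluster 2 windows lay above that.

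Cluster 1 was less even. Its 10 windows in replicate 2 held from 61 to 120 regions with a median of 101. The count of 120 was reached by the 2 adjoining windows from 5500000 to 6000000. The lowest window was the first, from 4500000 to 4750000, and 7 of the 10 lay above the highest window between the clusters. Before cluster 1 the highest window held 107, which 4 of the 10 exceeded, and none exceeded the 123 on II. Of the 329 windows on the other nuclear chromosomes, 11 reached the median of cluster 1.

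Replicate 1 had lower counts, and its richest and poorest windows were partly others. Its cluster 2 windows held from 62 to 104 regions with a median of 82, the highest from 16000000 to 16250000 and the lowest from 16750000 to 17000000. The range of its cluster 1 windows was 49 to 96 with a median of 68.5, the highest from 5500000 to 5750000 and the lowest from 6500000 to 6750000. The 26 windows between the clusters held 40 to 87 with a median of 64.5, so the 2 distributions overlapped in this replicate. Replicate 2 had more regions than replicate 1 in all 14 windows of cluster 2 and in 9 of 10 in cluster 1. These counts are not scaled to list length, 29974 nuclear regions in replicate 2 and 25023 in replicate 1. The median window of replicate 2 was also higher before cluster 1 (66 against 57) and between the clusters (68 against 64.5). On the other chromosomes these medians were 72 and 61. Window by window the counts of the 2 replicates had a Pearson r of 0.68 across the 14 windows of cluster 2 (Spearman rho 0.70) and 0.64 across the 10 of cluster 1 (rho 0.69). These describe adjoining windows of 1 chromosome, not independent samples.

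**Figure D1:**
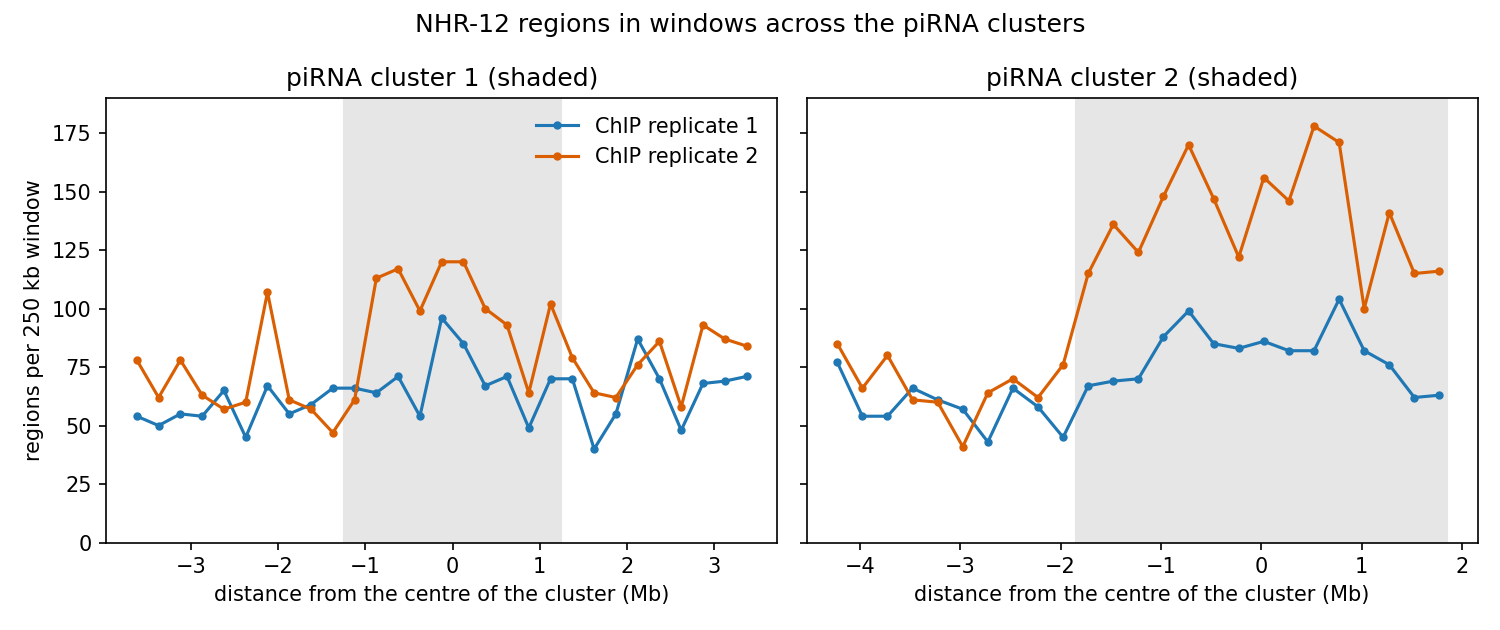
Regions per 250 kb window (y axis) against distance from the centre of each piRNA cluster in Mb (x axis), for ChIP replicate 1 (blue) and ChIP replicate 2 (orange), with the cluster shaded. In cluster 2 the replicate 2 counts stay at 100 or more within the 14 full windows, while those of replicate 1 lie from 62 to 104.

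Of the 4 edges, only the left edge of cluster 2 showed a step up into the cluster in both replicates. There replicate 2 had 76 regions in the last 250 kb outside and 115 in the first 250 kb inside, and replicate 1 had 45 and 67. Both counts of replicate 1 lay within the 40 to 87 of its windows between the clusters, and a window further out held 66. The 115 of replicate 2 lay above its highest window between the clusters, 93. On the right edge of cluster 2, replicate 2 had 114 inside and 87 outside, whereas replicate 1 had 54 inside and 81 outside. For cluster 1, replicate 2 went from 47 outside to 61 inside on the left and from 102 inside to 79 outside on the right, and replicate 1 had equal counts on both sides of each edge, 66 on the left and 70 on the right. The single regions nearest to the edges varied in strength. At the left edge of cluster 2 the nearest replicate 2 regions ranked 23118 inside (start 13503765) and 13094 outside (start 13499104), and at its right edge the nearest replicate 1 regions ranked 18278 inside (start 17194269) and 714 outside (start 17200626).

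On the other 5 nuclear chromosomes no stretch of equal length was as dense in replicate 2. Among 645 stretches of 3.7 Mb, taken every 100 kb, density ran from 183 to 348 regions per Mb with a median of 284, below the 556 of cluster 2. Stretches of 2.5 Mb reached at most 364 per Mb, on X from 11.9 to 14.4 Mb, below the 396 of cluster 1. In replicate 1, 8 of 645 stretches were at least as dense as cluster 2, with up to 329 per Mb on X, and 168 of 705 were at least as dense as cluster 1. The stretches overlap one another and are given as a description.

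Spacing, joining and covered length all depend on the density of regions and are given as a description of it. Midpoints of neighbouring regions in replicate 2 were a median of 1228.5 bp apart in cluster 2 and 1503 bp in cluster 1, against 1969 bp before cluster 1 and 2012 bp between the clusters. The corresponding medians of replicate 1 were 1891, 2045.5, 2680 and 2387.5 bp. Entries joined into loci of 2 or more made up 47.0% of the cluster 2 regions in replicate 2, 42.0% of those in cluster 1 and 34.9% of those in the rest of IV. The list of replicate 2 covered 25.4% of the length of cluster 2 and 18.4% of cluster 1, against 13.4% of the rest of IV. Replicate 1 covered 16.6%, 14.6% and 12.9%. The largest locus in cluster 2 joined 5 entries of replicate 2 over 1568 bp, from 15700213 to 15701780. Width holds no further information here, since every cluster region was 600 bp in replicate 1 and 516 bp in replicate 2.

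A gap common to both lists lay in cluster 1. Its longest interval between neighbouring midpoints was 76.3 kb in replicate 2, from 6661196 to 6737537, and 55.0 kb in replicate 1, from 6680728 to 6735740. In cluster 2 the longest intervals were 20.3 kb in replicate 2 and 35.5 kb in replicate 1, at different places. A shared longest gap was not particular to cluster 1. Before cluster 1 the longest intervals overlapped too, 38.1 kb from 3920254 in replicate 2 and 48.9 kb from 3901637 in replicate 1. Between the clusters they lay at different places.

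The strength of a region was read from the authors' score, whose scale the files do not state, by ranking the nuclear regions of each list with the strongest first. Ties were ordered by the number in the region name. By median rank, both clusters of replicate 2 and cluster 2 of replicate 1 stood somewhat higher than the rest of IV. Median ranks were not tested. The median cluster region of replicate 2 stood at 45.5% of the list in cluster 1 and 44.2% in cluster 2, against 49.8% in the rest of IV. In replicate 1 these medians were 51.9%, 47.1% and 51.4%.

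Counted as loci with at least 1 entry in the strongest 10% of the list, replicate 2 had 267 of 1541 in cluster 2 (17.3%, 95% interval 15.5 to 19.3) and 123 of 774 in cluster 1 (15.9%, 13.4 to 18.7). The rest of IV had 265 of 2621 (10.1%, 8.98 to 11.3), and the whole nuclear list 11.7%. Both differences passed Fisher's exact test (two-sided, adjusted p = 2.15e-10 for cluster 2 and 6.05e-05 for cluster 1, over 6 tests). The clusters did not differ from each other beyond counting error, at 1.43 percentage points (exact test, adjusted p = 0.643). In replicate 1 the shares were 11.7% in cluster 2, 10.2% in cluster 1 and 11.3% in the rest of IV, beside 11.8% of all nuclear loci, and none of the 3 differences passed (Fisher's exact test, smallest adjusted p = 0.643).

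Rank bands were counted in deposited entries, so their intervals take overlapping entries as separate and may be too narrow. In replicate 2 the density ratio was highest between the 1% and 10% ranks and above 1 in each of the weaker bands of both clusters. Between the 1% and 10% ranks cluster 2 held 274 regions, or 74.1 per Mb, against 22.4 per Mb in the rest of IV, a ratio of 3.31 (95% interval 2.78 to 3.94). Cluster 1 held 123 in that band, a ratio of 2.20 (1.76 to 2.73). From there the cluster 2 ratio was 2.12 in the 10 to 25% band, 1.91 from 25 to 50%, 1.67 from 50 to 75% and 1.79 from 75 to 100%. The same 4 bands of cluster 1 had ratios of 1.49, 1.28, 1.29 and 1.30. Within the strongest 1% of the list the ratios were 1.53 (0.668 to 3.28) on 11 cluster 2 regions and 1.44 (0.519 to 3.48) on 7 cluster 1 regions. Both intervals include 1. That of cluster 1 includes its 2.20 in the next band, and that of cluster 2 ends just below its 3.31.

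In replicate 1 the ratio of cluster 2 was 1.39 in the 1 to 10% band (1.10 to 1.74), 1.45 from 10 to 25% and 1.42 from 25 to 50%, and 1.19 and 1.21 in the weaker bands. The strongest 1% of this list, 250 regions, cuts through 344 nuclear regions tied at the highest score, so it depends on the numbers in the region names. Among all 344 tied regions 5 were in cluster 2, a ratio of 0.545 (0.164 to 1.43), and 7 in cluster 1, a ratio of 1.13 (0.416 to 2.65). For cluster 1 the 1 to 10% band gave 0.955 (0.694 to 1.29), where replicate 2 gave 2.20.

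**Figure D2:**
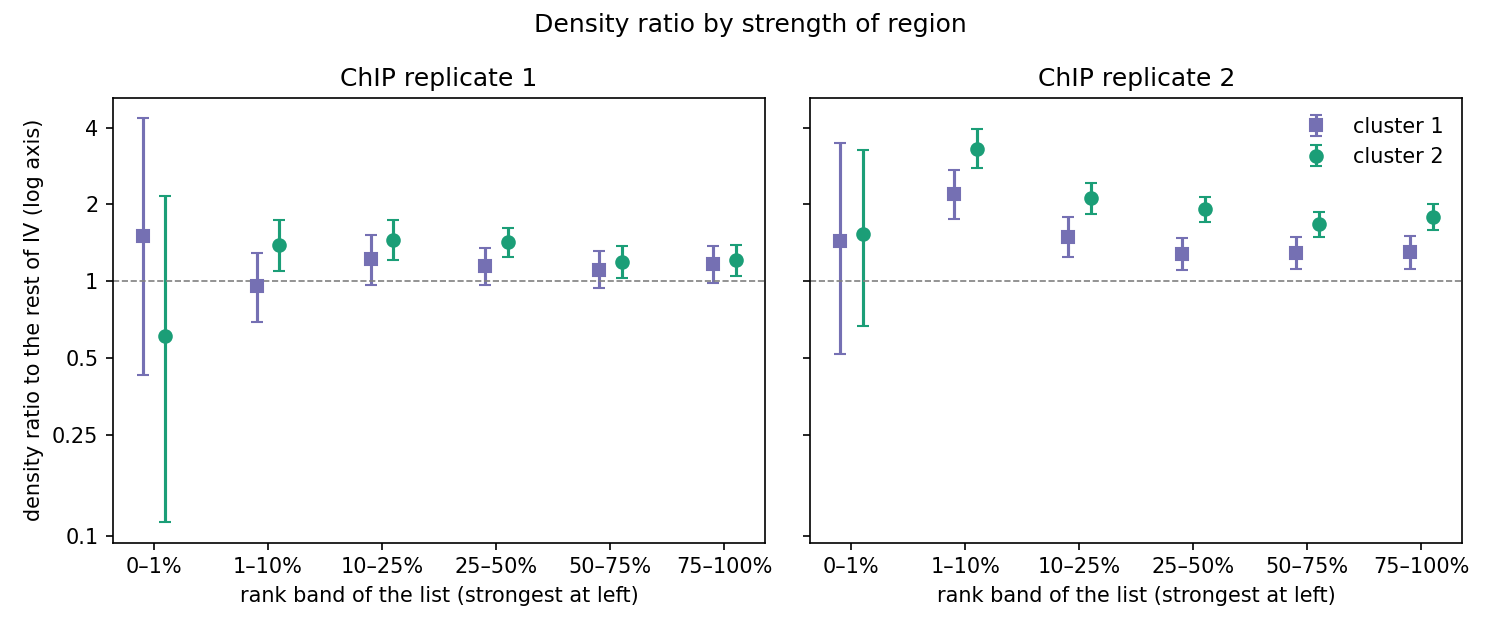
Ratio of region density in cluster 1 (squares) and cluster 2 (circles) to the rest of IV (y axis, log scale) for 6 rank bands of each replicate list (x axis, strongest at left), with 95% exact binomial intervals as bars and a dashed line at 1. Counts are of deposited entries, which can overlap. The 0 to 1% band of replicate 1 cuts through tied scores. The highest ratio, 3.31, is that of cluster 2 in the 1 to 10% band of replicate 2.

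The next comparison asked how often the 2 replicates marked the same places within the clusters. Overlap was counted when 1 bp or more was shared. Of the cluster 2 loci of replicate 1, 602 of 880 (68.4%, 95% interval 65.2 to 71.5) met a region of replicate 2. The share was 304 of 529 in cluster 1 (57.5%, 53.1 to 61.7) and 889 of 2127 in the rest of IV (41.8%, 39.7 to 43.9), beside 44.5% of all nuclear loci. All 3 differences passed Fisher's exact test, with adjusted p = 4.58e-40 for cluster 2 and 3.95e-10 for cluster 1 against the rest of IV, and 8.91e-05 between the clusters. The test takes no account of the density of the other list, which was higher in both clusters in either direction. Its calls therefore cannot separate replicate agreement from density.

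In the other direction the clusters stood apart much less. Of the replicate 2 loci, 636 of 1541 in cluster 2 (41.3%, 38.8 to 43.8) and 307 of 774 in cluster 1 (39.7%, 36.2 to 43.2) met replicate 1. The rest of IV had 919 of 2621 (35.1%, 33.2 to 36.9) and the nuclear list 36.2%. The differences of 6.21 and 4.60 percentage points passed (Fisher's exact test, adjusted p = 0.000103 and 0.0257), and that between the clusters did not (adjusted p = 0.473 by the same exact test). With midpoints required to lie within 100 bp both calls against the rest of IV were lost, at 2.16 and 3.12 points (Fisher's exact test, adjusted p = 0.0906 and 0.061).

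A denser list is met more often wherever a region is placed, so each share is given with the percentage of positions in the stretch at which a region of that width would meet the other list. For replicate 1 regions this was 47.5% in cluster 2, where 66.9% of regions met replicate 2, a ratio of 1.41. It was 35.6% in cluster 1, where 55.8% did, a ratio of 1.57. In the rest of IV it was 26.5% beside 41.5%, also a ratio of 1.57, and 44.1% of all nuclear regions of replicate 1 met replicate 2. For replicate 2 regions the ratios were 1.41 in cluster 2 (39.8% beside 28.3%), 1.54 in cluster 1 (38.7% beside 25.1%) and 1.57 in the rest of IV (35.1% beside 22.4%). On this scale, which was not tested, cluster 2 lay below the rest of IV in both lists, cluster 1 lay at the same value or below it, and the other 5 nuclear chromosomes ranged from 1.48 to 1.67. Taken as a difference, which was not tested either, the order changed. In replicate 1 the observed share lay above the share of positions by 20.2 points in cluster 1, 19.4 in cluster 2 and 15.0 in the rest of IV, and in replicate 2 by 13.6, 11.5 and 12.7 points. On the other 5 nuclear chromosomes this difference ranged from 13.4 to 17.5 points in replicate 1 and from 11.2 to 14.8 in replicate 2. Both clusters thus lay above that range in replicate 1 and within it in replicate 2.

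**Figure D3:**
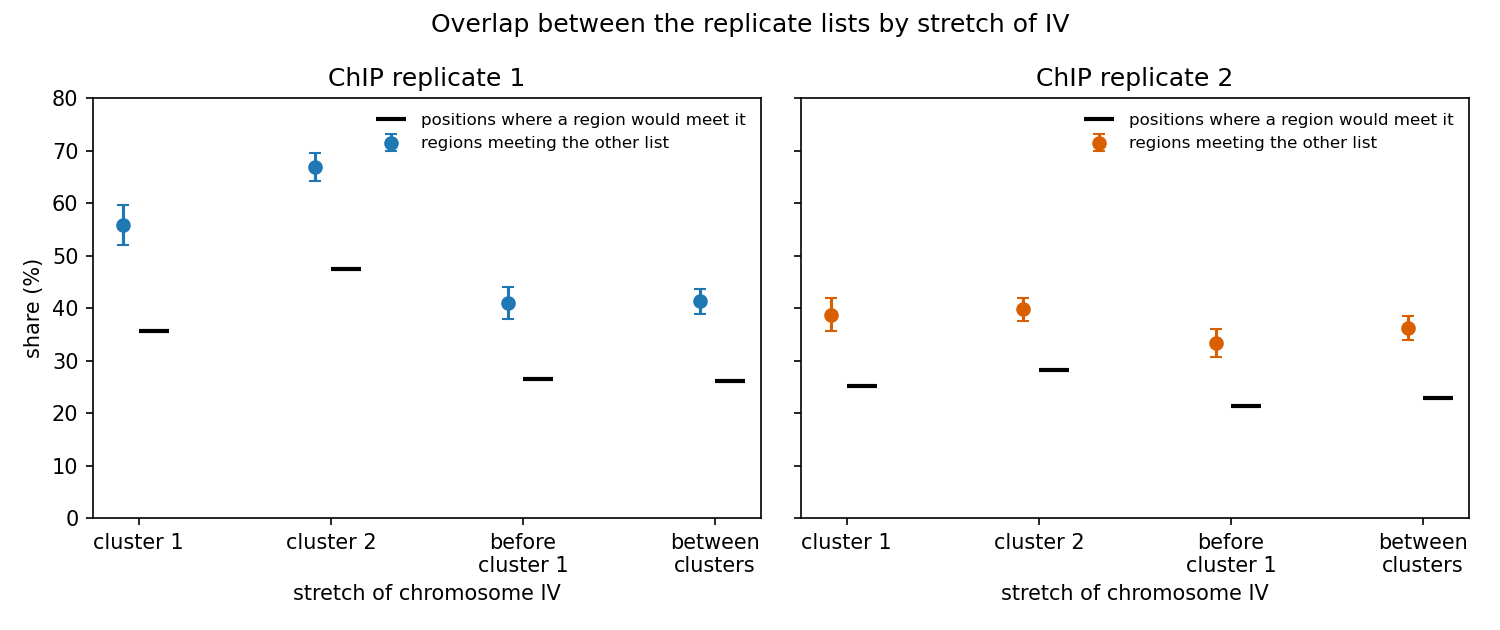
Percentage of regions that share 1 bp or more with the other replicate's list (points, with 95% exact binomial intervals) and percentage of positions at which a region of that width would meet it (black marks), for 4 stretches of IV (x axis). Regions are deposited entries, which can overlap one another within a list. The replicate 1 point for cluster 2, at 66.9%, is the highest, and its mark, at 47.5%, is the highest too.

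Agreement also depended on strength. Among replicate 1 regions in the strongest 10% of the list, 73.9% of the 115 in cluster 2, 63.2% of the 57 in cluster 1 and 58.6% of the 261 in the rest of IV met replicate 2. In the weaker 50% these shares were 64.5%, 55.2% and 37.2%. Among the strongest 10% of replicate 2, 43.5% of the 285 cluster 2 regions, 41.5% of the 130 cluster 1 regions and 45.8% of the 275 from the rest of IV met replicate 1. For these strong regions of replicate 2 the direction was thus the opposite of that in the whole list, and counted as loci the differences of -1.84 and -4.20 points did not pass (Fisher's exact test, adjusted p = 0.741 for both).

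As over the nuclear lists, most strong cluster regions of 1 replicate met no strong region of the other. Of the 415 cluster regions in the strongest 10% of replicate 2, 31 (7.47%) met a region in the strongest 10% of replicate 1. In the rest of IV this held for 35 of 275 (12.7%), and over the nuclear list for 16.1%. Of the 172 strong cluster regions of replicate 1, 32 (18.6%) met a strong region of replicate 2, where the rest of IV had 13.4% and the nuclear list 19.6%. Where both replicates had a region, paired by mutual best overlap, their ranks had a Spearman rho of 0.14 across 310 pairs in cluster 1, 0.00 across 630 in cluster 2 and 0.09 across 924 in the rest of IV. These are descriptions across regions, in part of chance overlaps.

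In the combined list, which rests on both replicates, no density difference passed. It held 3 regions in cluster 1, 4 in cluster 2 and 17 in the rest of IV, or 1.20, 1.08 and 1.51 per Mb. The ratio to the rest of IV was 0.797 for cluster 1 (95% interval 0.150 to 2.76) and 0.718 for cluster 2 (0.176 to 2.20), and neither passed (exact binomial test, adjusted p = 1 for both). With so few regions the interval for cluster 2 also includes the 1.79 found in replicate 2. In lists of the 197 strongest nuclear regions of a single replicate the ratio for cluster 1 was 2.05 without replicate 1 and 1.88 without replicate 2, and for cluster 2 it was 1.66 and 0.763, none of which passed the exact test. The list without replicate 2 is drawn from the 344 tied regions by the numbers in their names, and all 344 gave 1.13 and 0.545. Of the replicate 2 regions in the clusters, 10 of 3046 (0.328%) met a combined region, against 0.655% in the rest of IV and 0.891% of the nuclear list. For replicate 1 these were 9 of 1871 (0.481%), 0.725% and 1.07%.

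All 7 combined regions of the clusters had a counterpart in both replicates, where 97.0% of the combined list had one in replicate 1 and 98.0% in replicate 2. The 7 are given in order of position, with the rank of the strongest overlapping nuclear region in each replicate. Of the combined list 51.8% shared its highest score, 2.37, and 3 of the 7 were among them.

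In cluster 1 the first region ran from 4749980 to 4750166, only 187 bp wide, had the highest combined score, and its rank was 79 in replicate 1 and 8 in replicate 2. Next came the region from 5183590 to 5184153, also with the highest score and with ranks 42 and 91. The third, from 6790327 to 6790890, scored 1.81 and ranked 1639 and 567. The first and second were within the strongest 1% of both lists, and the third was within the strongest 10% of both.

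Cluster 2 had no combined region in the strongest 1% of both lists. The region from 13720762 to 13721325 scored 1.60 and ranked 1771 in replicate 1 and 141 in replicate 2. That from 14978737 to 14979300 had the highest combined score, with ranks 2177 and 54. In both, replicate 2 placed the region in its strongest 1% while replicate 1 placed it in the 1 to 10% band.

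The remaining pair lay 109 kb apart. The region from 15646456 to 15647019 scored 1.30, the second lowest value of the list, and ranked 161 in replicate 1 and 3152 in replicate 2. Its neighbour from 15755782 to 15756345 scored 1.34 and ranked 5950 and 200. Here each region was in the strongest 1% of only 1 replicate, and not the same one. The median rank of the cluster 2 regions was 1974 in replicate 1 and 170.5 in replicate 2, against 81 and 159.5 for the combined regions of the rest of IV that had a counterpart.

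**Figure D4:**
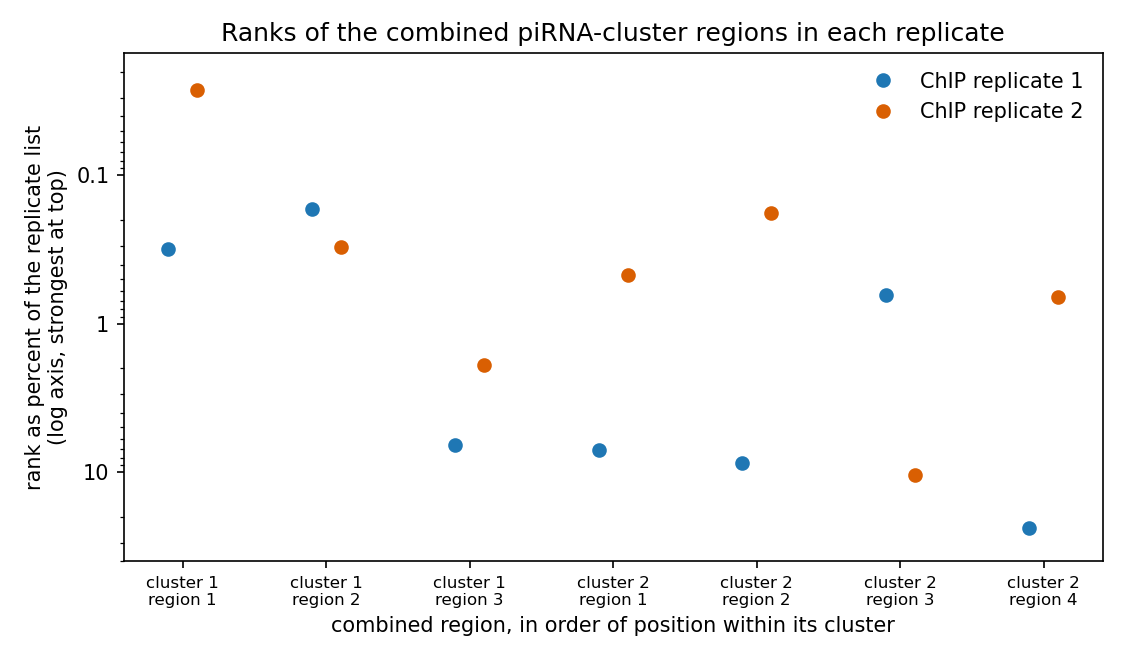
Rank of the strongest overlapping replicate region, as a percentage of the replicate list (y axis, log scale, strongest at top), for the 7 combined regions in the clusters in order of position (x axis), in ChIP replicate 1 (blue) and replicate 2 (orange). The first and second regions of cluster 1 lie within 1% in both, and no cluster 2 region does.

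Of the strongest 1% of each replicate list, 3 of 8 cluster regions met a combined region in replicate 1 and 5 of 18 in replicate 2. The rest of IV had 9 of 15 and 10 of 22, and the nuclear lists 49.6% and 52.5%. In replicate 1 the first of cluster 1 ran from 6323542 to 6324141, ranked 34 and met no region of replicate 2. It was followed by the counterparts of the second and first combined regions, at ranks 42 and 79, and then by regions starting at 6756399 (rank 109) and 5591545 (rank 175), which met replicate 2 only at ranks 8143 and 2724. In cluster 2 the 2 strongest entries of replicate 1 overlapped each other and ran from 14033270 to 14034120, with ranks 59 and 89. They met a replicate 2 region of rank 178, yet no combined region. The next 3 started at 15646447, 14746053 and 15366335, with ranks 161, 270 and 312, and met replicate 2 at ranks 3152, 5841 and 3645. All 10 of these had the highest score of replicate 1, which 7 regions in cluster 1 and 5 in cluster 2 shared.

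In replicate 2 the first 2 in cluster 1 were the counterparts of the first and second combined regions. The other 3 of the strongest 5, starting at 5664839, 5020851 and 6436628 with ranks 101, 171 and 188, met no region of replicate 1. Cluster 2 was led by the counterparts of the combined regions at 14978737 and 13720762, at ranks 54 and 141. The region starting at 14423976 (rank 150) met replicate 1 only at rank 13464, and those starting at 15896840 and 15347747 (ranks 168 and 174) met none. Thus 5 of these 10 regions had a counterpart in replicate 1, where 36.2% of the whole nuclear list and 78.6% of its strongest 1% had one. Of the 10 named from replicate 1, 9 had a counterpart in replicate 2, where the nuclear list had 44.1% and its strongest 1% had 82.4%.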

How the data were processed

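The authors deposited region lists for the 2 ChIP samples and for both combined; per the file headers they are on WormBase WS220, and the source column reads spp_via_IDR, naming the SPP caller and the irreproducible discovery rate procedure. The deposited score per region has no stated scale and served only to rank regions within a list. For the aligner, versions, thresholds and use of inputs, the sources used here give nothing, nor do they say whether the list of replicate 2, exactly 30000 entries long, was capped. Entries of MtDNA were left out, leaving 25023 and 29974 ranked regions. Chromosome lengths are the largest region end in the 3 lists.

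Entries sharing 1 bp or more were joined to loci (19280 and 24384 nuclear loci). Densities were compared by two-sided exact binomial tests against length (9 tests) and shares by Fisher's exact tests (6 each for overlap and rank), with Benjamini-Hochberg adjustment and a threshold of 0.05. Intervals are 95% exact binomial (Clopper-Pearson) and, like the p-values, cover counting over regions, not biological replicates. The sliding 100 kb stretches and the share of positions were computed as descriptions. Combined members, the 5 strongest regions per cluster and replicate, and the richest and poorest windows were named by rule. Members, stretches and rules were chosen with earlier results of these data known. The tests were tried on simulated data, with positions drawn at an even rate and, for the density test in some runs, a planted cluster excess. The overlap and rank tests were tried only without an excess, so the trial does not check them where a cluster is denser. In the trial the density test counted entries, not joined loci, so the trial does not check it on lists like these. Computation used scipy 1.17.1, pandas 2.3.3 and numpy 2.4.6 under Python 3.11.15, with plots from matplotlib 3.10.9, and bedtools 2.31.1 gave identical overlap and locus counts.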

Additional observations from a re-analysis of the deposited data

How the results depend on the processing

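Of 140 values recomputed under alternatives, 125 kept their call or their lack of one. The excess of both clusters in replicate 2 and of cluster 2 in replicate 1 kept its call in every density alternative run, at ratios of 1.71 to 3.08 (cluster 2, replicate 2), 1.25 to 2.10 (cluster 1, replicate 2) and 1.24 to 1.40 (cluster 2, replicate 1). The upper end in replicate 2 came from the strongest 10% of the list. Cutting replicate 2 to the length of replicate 1, chosen after the data were seen, gave 1.86 and 1.37. Every reference lay on IV or the other 4 autosomes, and none included X. In replicate 1, X had 214 loci per Mb, beside 238 in cluster 2 and 211.6 in cluster 1. In replicate 2, X had 267, beside 416 and 309.6. These differences from X were not tested. The cluster 1 excess of replicate 1 lost its call in 4 alternatives, at 1.13 (strongest 50%), 1.02 (strongest 10%), 1.11 (boundaries inward) and 1.10 (stretch between the clusters). Cluster 2 passed against cluster 1 in replicate 1 with deposited entries (1.15), the strongest 50% (1.24) and boundaries inward (1.18).

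For the overlap, midpoints within 100 bp ended the calls at 3.11 points (cluster 2 against cluster 1, replicate 1), 3.12 (cluster 1, replicate 2) and 2.16 (cluster 2, replicate 2), and 50% of the shorter region that of cluster 1 in replicate 2 (3.52). In the strongest 10% the calls were lost in replicate 1 at 3.80 (cluster 1) and 12.8 (cluster 2 against cluster 1), and in replicate 2 the sign turned to -4.20 (cluster 1) and -1.84 (cluster 2). These lists are smaller, and the cause of the changes was not tested. All 28 alternatives for the strongest share kept their call or lack of one.

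In place of the combined list, the strongest 197 nuclear regions of a single replicate gave ratios to the rest of IV of 1.88 to 2.05 for cluster 1 and 0.763 to 1.66 for cluster 2, and 0.405 to 0.811 for cluster 2 against cluster 1. None passed, on 3 to 6 cluster regions. The list from replicate 1 is cut by region number among 344 tied regions; all 344, tried once the ties had been noticed in the files, gave 1.13, 0.545 and 0.483, and none passed. No paired analysis was possible because only ChIP lists were compared and no input list was analysed here. Read depth is unknown, and its part in the difference between replicates was not tested.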
